A study of Homo sapiens with 101 samples.

Results

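The clustered histone genes are the replication-dependent genes for the linker histone H1 and the core histones H2A, H2B, H3 and H4 that lie together in a few gene clusters, here taken by the symbols of the array's annotation. Pseudogenes were left out, only probe sets naming a single gene were used, and each gene was represented by its probe set of highest mean. This gave 42 genes of 19775 measured: 6 for H1, 8 for H2A, 13 for H2B, 7 for H3 and 8 for H4. A further 20 probe sets name several cluster genes at once and are not among the 42. The genes were chosen by symbol, with earlier results of these data known.

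The arrays came from SW620 and SW480, established human colorectal cancer cell lines derived from a lymph node metastasis and the primary tumour of the same patient. In each line 1 gene was knocked down by a short hairpin RNA (NGFR, HRAS, MAPK3, MAP2K1, MAP2K2 or CDK5), or cells carried a non-target hairpin (NT) or an empty vector (EV), or were not transduced. HRAS is a RAS GTPase, MAP2K1 and MAP2K2 are the MEK kinases and MAPK3 is an ERK kinase below them, NGFR is a receptor for neurotrophins, and CDK5 is an unusual cyclin-dependent kinase studied mostly in neurons. The arrays fall into 18 groups of 6, except the CDK5 knockdown in SW620 with 5 (replicates 2 to 6) and the non-transduced cells with 3 per line. For HRAS the labels give different hairpin codes in different replicates. Replicate 1, replicate 2, replicates 3 to 6 and replicate 7 (non-transduced cells only) are treated as separate label series.

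Transcripts of clustered histone genes accumulate in S phase, when newly copied DNA has to be packed, and NPAT drives their transcription at the entry to that phase. Most of these mRNAs end in a stem loop bound by SLBP in place of a poly(A) tail. Labelling of these arrays usually starts from poly(A), so the signal of a member leans to any polyadenylated form it makes, and H1-2, H2AC6, H2BC4, H2BC5, H2BC12, H2BC21 and H4C8 are known to make such forms. A level here can therefore change with S phase, with the form of the mRNA, or with both, and these cannot be told apart from these values.

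Promoters of the 42 genes were looked up in RefSeq (GRCh38.p14), where 40 had an entry, 38 on chromosome 6 and 2 on chromosome 1. Windows ran from 250 bases before to 50 bases after the gene's start and were searched on both strands for the octamer ATTTGCAT, the CCAAT box CCAAT and the TATA box TATAAA. The octamer, a hallmark of H2B promoters, stood in 16 of the 40 windows (40%) and in 1.77% of all 35116 windows of this length. It was found for 10 of 13 H2B and 6 of 8 H2A genes and for none of 6 H1, 6 H3 and 7 H4 genes. The CCAAT box stood in 87.5% of the members' windows against 34.6% of all, and the TATA box in 67.5% against 11.5%. These matches are descriptions of letters, not sites shown to be bound. The 250 bases before the start are printed for 6 genes that lead the changes described below, with the matched octamer, CCAAT and TATA letters in capitals, read 5′ to 3′ on the gene's strand.
H2BC21 (chr1:149886683-149886932, minus strand): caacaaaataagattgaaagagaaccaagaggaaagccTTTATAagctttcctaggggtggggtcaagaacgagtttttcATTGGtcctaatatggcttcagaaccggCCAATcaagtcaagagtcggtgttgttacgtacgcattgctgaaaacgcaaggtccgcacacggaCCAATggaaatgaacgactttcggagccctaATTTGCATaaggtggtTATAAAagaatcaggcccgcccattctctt
H2AC6 (chr6:26123922-26124171, plus strand): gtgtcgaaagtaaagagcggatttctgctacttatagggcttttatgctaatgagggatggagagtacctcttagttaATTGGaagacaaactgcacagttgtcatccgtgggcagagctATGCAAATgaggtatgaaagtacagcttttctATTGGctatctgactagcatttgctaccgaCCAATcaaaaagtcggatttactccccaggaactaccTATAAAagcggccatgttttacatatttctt
H2AC17 (chr6:27893186-27893435, minus strand): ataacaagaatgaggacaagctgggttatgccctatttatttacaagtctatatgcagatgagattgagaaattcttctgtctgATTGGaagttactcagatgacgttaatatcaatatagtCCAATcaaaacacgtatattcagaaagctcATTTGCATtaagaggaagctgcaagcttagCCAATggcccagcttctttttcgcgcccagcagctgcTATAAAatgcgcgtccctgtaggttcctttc
H2BC12 (chr6:27146859-27147108, minus strand): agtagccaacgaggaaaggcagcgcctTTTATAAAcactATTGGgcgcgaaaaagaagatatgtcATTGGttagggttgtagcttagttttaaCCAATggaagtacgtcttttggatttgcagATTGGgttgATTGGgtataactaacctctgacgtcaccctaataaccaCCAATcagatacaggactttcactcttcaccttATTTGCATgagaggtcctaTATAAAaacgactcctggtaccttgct
H4C8 (chr6:26285535-26285784, minus strand): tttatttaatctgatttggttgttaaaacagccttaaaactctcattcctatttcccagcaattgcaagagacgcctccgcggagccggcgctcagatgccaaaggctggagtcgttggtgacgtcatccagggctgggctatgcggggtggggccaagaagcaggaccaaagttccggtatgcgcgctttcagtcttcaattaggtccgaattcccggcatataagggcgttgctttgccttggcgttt
H1-2 (chr6:26056471-26056720, minus strand): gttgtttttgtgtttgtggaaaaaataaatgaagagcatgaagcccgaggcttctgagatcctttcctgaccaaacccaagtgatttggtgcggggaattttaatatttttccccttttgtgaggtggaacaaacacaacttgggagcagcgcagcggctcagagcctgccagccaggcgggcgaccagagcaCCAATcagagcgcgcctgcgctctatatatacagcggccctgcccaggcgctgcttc
The 4 H2A and H2B sequences hold all 3 motifs, with the octamer of H2AC6 on the other strand. H1-2 has 1 CCAAT box, and no match was found before H4C8.

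Each targeted gene was lower in its own knockdown in both lines, and the fall passed the test in all but NGFR in SW620. NGFR stood at 69.8% of the vector controls in the SW620 knockdown (log2 change -0.52 ± 0.26, limma's adjusted p = 0.136) and at 9.25% in the SW480 knockdown (-3.43 ± 0.26). MAPK3 was also little reduced, to 66.4% in SW620 and 80.2% in SW480. HRAS was reduced less in SW620, to 59.95% (limma's adjusted p = 0.0372), than in SW480, to 27.5%. Array medians lay between 5.05 and 5.28. Of 8 colon epithelium markers, 5 lay above the median gene in SW620 and 6 in SW480, of 6 fibroblast markers 2 and 1, and of 4 leukocyte markers 0 in either line. Of the arrays, 6 stood apart: 3 SW620 arrays with a GAPDH 3′ minus 5′ difference over 2, which is larger in degraded RNA (MAP2K1 knockdown replicate 2, NGFR knockdown replicate 1 and MAPK3 knockdown replicate 2), and replicate 1 of the MAP2K1, MAP2K2 and MAPK3 knockdowns of SW480, where the genes that part the lines leaned to SW620. The count of changed members without them is given beside each result they touch.

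Changes are given on the log2 scale, with their standard errors, as the level in a knockdown minus the mean of both vector controls of that line, fitted with a term for label series. Each rests on 6 knockdown arrays (5 for CDK5 in SW620) against 12 control arrays. A gene is said to have risen or fallen where its limma p, adjusted over all 19775 genes, was under 0.05. Replicates 3 to 6 of a group agreed far more closely than the label series did. The SD of the members within replicates 3 to 6 was 0.118 and that between label series 0.276 (medians over 16 groups). Whether replicates 3 to 6 are separate cultures is not stated, so the p-values may measure technical spread in part. Counts are therefore also given with replicates 3 to 6 averaged to a single value, an alternative chosen after seeing the data. The share of all genes changed under such an alternative is given only for the NGFR knockdown of SW480. Other counts under an alternative are not read as results about the members.

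Most members were dim. Their median level over all arrays was 4.83 on the log2 scale, against 6.18 over all genes, and 10 of 42 lay above that median. The brightest were H2BC12 (10.5), H2BC5 (9.35), H1-2 (8.85), H2AC25 (8.54) and H2AC6 (8.48). By class, the median level was 5.48 for H2A, 5.16 for H4, 4.78 for H1, 4.63 for H2B and 4.05 for H3, and levels of different probe sets are not comparable as amounts. Of the 10 brighter members, 5 were read by probe sets marked x_at, which can bind related transcripts (H2BC5, H2BC6, H2BC9, H2AC14 and H4C11). Their values may hold signal of other cluster genes. H2AC6 and H2BC21 were read by probe sets marked s_at, and whether these bind other transcripts was not looked at. Across the 12 comparisons, 9 members passed the test in 6 or more, with H2AC17 in 8, and 8 members passed it in none.

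**Figure D1:**
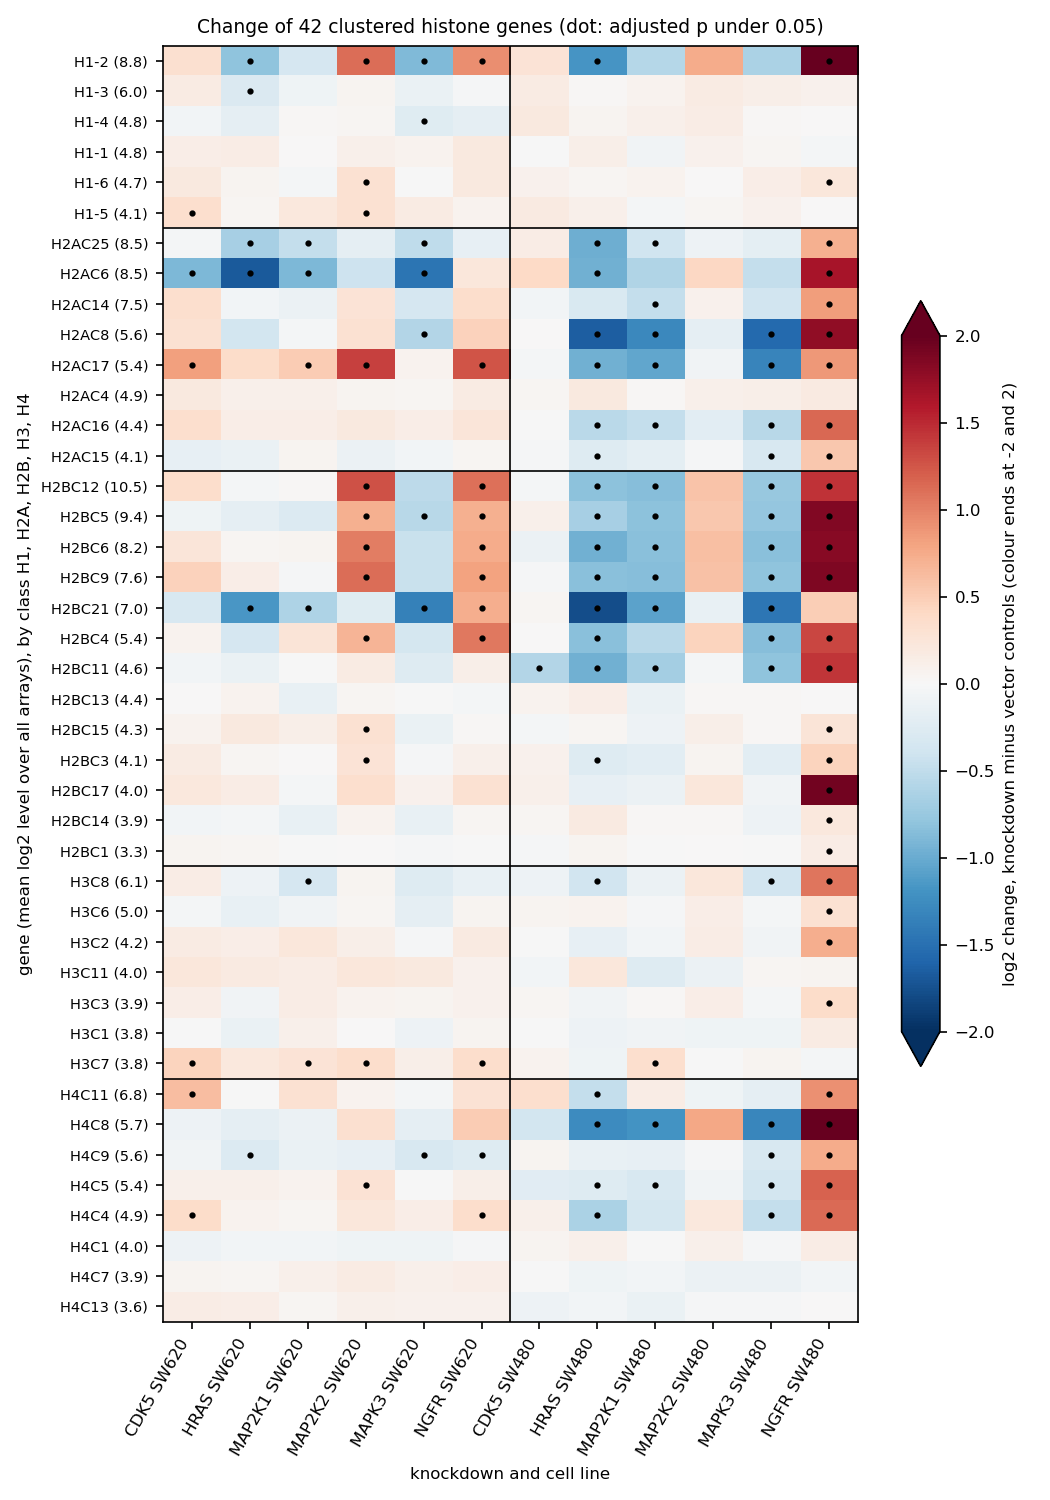
Log2 change of the 42 clustered histone genes (rows, grouped by class with the mean level in brackets) in 6 knockdowns of SW620 (left) and SW480 (right) against the vector controls, in colour, with a dot where the adjusted p is under 0.05. The NGFR knockdown of SW480 holds 29 rises, and the HRAS, MAP2K1 and MAPK3 knockdowns of SW480 hold 20, 13 and 16 falls.

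The NGFR knockdown of SW480 raised the clustered histone genes most widely. Of 42 members, 29 rose and 0 fell, where 13.1% of all genes rose and 10.9% fell in that comparison. The median member change was 0.63 against -0.02 over all genes. The rise took in every class, with 11 of 13 H2B, 7 of 8 H2A, 5 of 8 H4, 4 of 7 H3 and 2 of 6 H1 genes. Among the 10 brighter members 9 rose, with a median of 1.55.

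H4C8, a gene for histone H4, had the largest change. Its level on the 6 NGFR knockdown arrays of SW480 ran from 9.07 over a median of 9.83 to 9.86, against 4.63, 7.27 and 8.13 on the 12 vector control arrays. The groups did not overlap, and the change was 2.83 ± 0.26 (7.12-fold, adjusted p = 2.95e-15). H1-2, the linker histone H1 gene of highest level here, ran from 10.81 over 12.04 to 12.09 in NGFR knockdown cells and from 6.93 over 9.77 to 10.53 in the vector controls. These groups did not overlap either, and the change was 2.39 ± 0.28 (5.24-fold, adjusted p = 8.82e-11). H2BC17, an H2B gene near the bottom of the scale, stood at 4.87, 4.89, 6.31, 6.18, 5.96 and 6.40 in replicates 1 to 6 of the NGFR knockdown, against 3.62, 3.84 and 4.14 (lowest, median and highest) in the vector controls. The groups did not overlap, and the change was 1.93 ± 0.13 (adjusted p = 3.88e-22). H2BC17 passed the test in none of the other 11 comparisons.

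The brightest member, the H2B gene H2BC12, read 12.63, 12.78, 13.05, 13.02, 13.07 and 13.04 in replicates 1 to 6 of the NGFR knockdown of SW480. The 12 vector control arrays ran from 9.54 over 11.99 to 12.29, below every knockdown array. Its change was 1.44 ± 0.25 (2.72-fold, adjusted p = 4.93e-06). The H2A gene H2AC6 ran from 10.19 over 10.71 to 10.87 in the knockdown and from 7.37 over 9.33 to 9.74 in the vector controls, again without overlap, a change of 1.65 ± 0.23. H2AC8 (1.78 ± 0.21), H2BC5 (1.85 ± 0.21), H2BC6 (1.82 ± 0.25) and H2BC9 (1.86 ± 0.25) rose by like amounts, of which the H2BC5, H2BC6 and H2BC9 values come from probe sets that can bind related transcripts. H2BC21, by contrast, changed by 0.50 ± 0.23 and missed the threshold (adjusted p = 0.107).

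The rise was present in each label series. The median member change was 0.43 in replicate 1, 0.48 in replicate 2 and 0.64 in replicates 3 to 6, and 31 of 42 members had the same sign in all 3. For H4C8 the change was 3.90, 4.32 and 2.19 in those series. The larger values of replicates 1 and 2 go with lower control levels: H1-2 read 8.05 and 7.68 in replicates 1 and 2 of the empty vector of SW480, but 10.51, 10.52, 10.51 and 10.53 in replicates 3 to 6. With replicates 3 to 6 averaged to a single value, 18 members rose, all of them among the 29, where 2.66% of all genes changed. G1/S replication genes had a median change of -0.21 (0 of 23 rose and 2 fell) and G2/M genes 0.07 (0 of 26 changed by limma, 0 also at an unadjusted p under 0.05) in the same comparison.

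**Figure D2:**
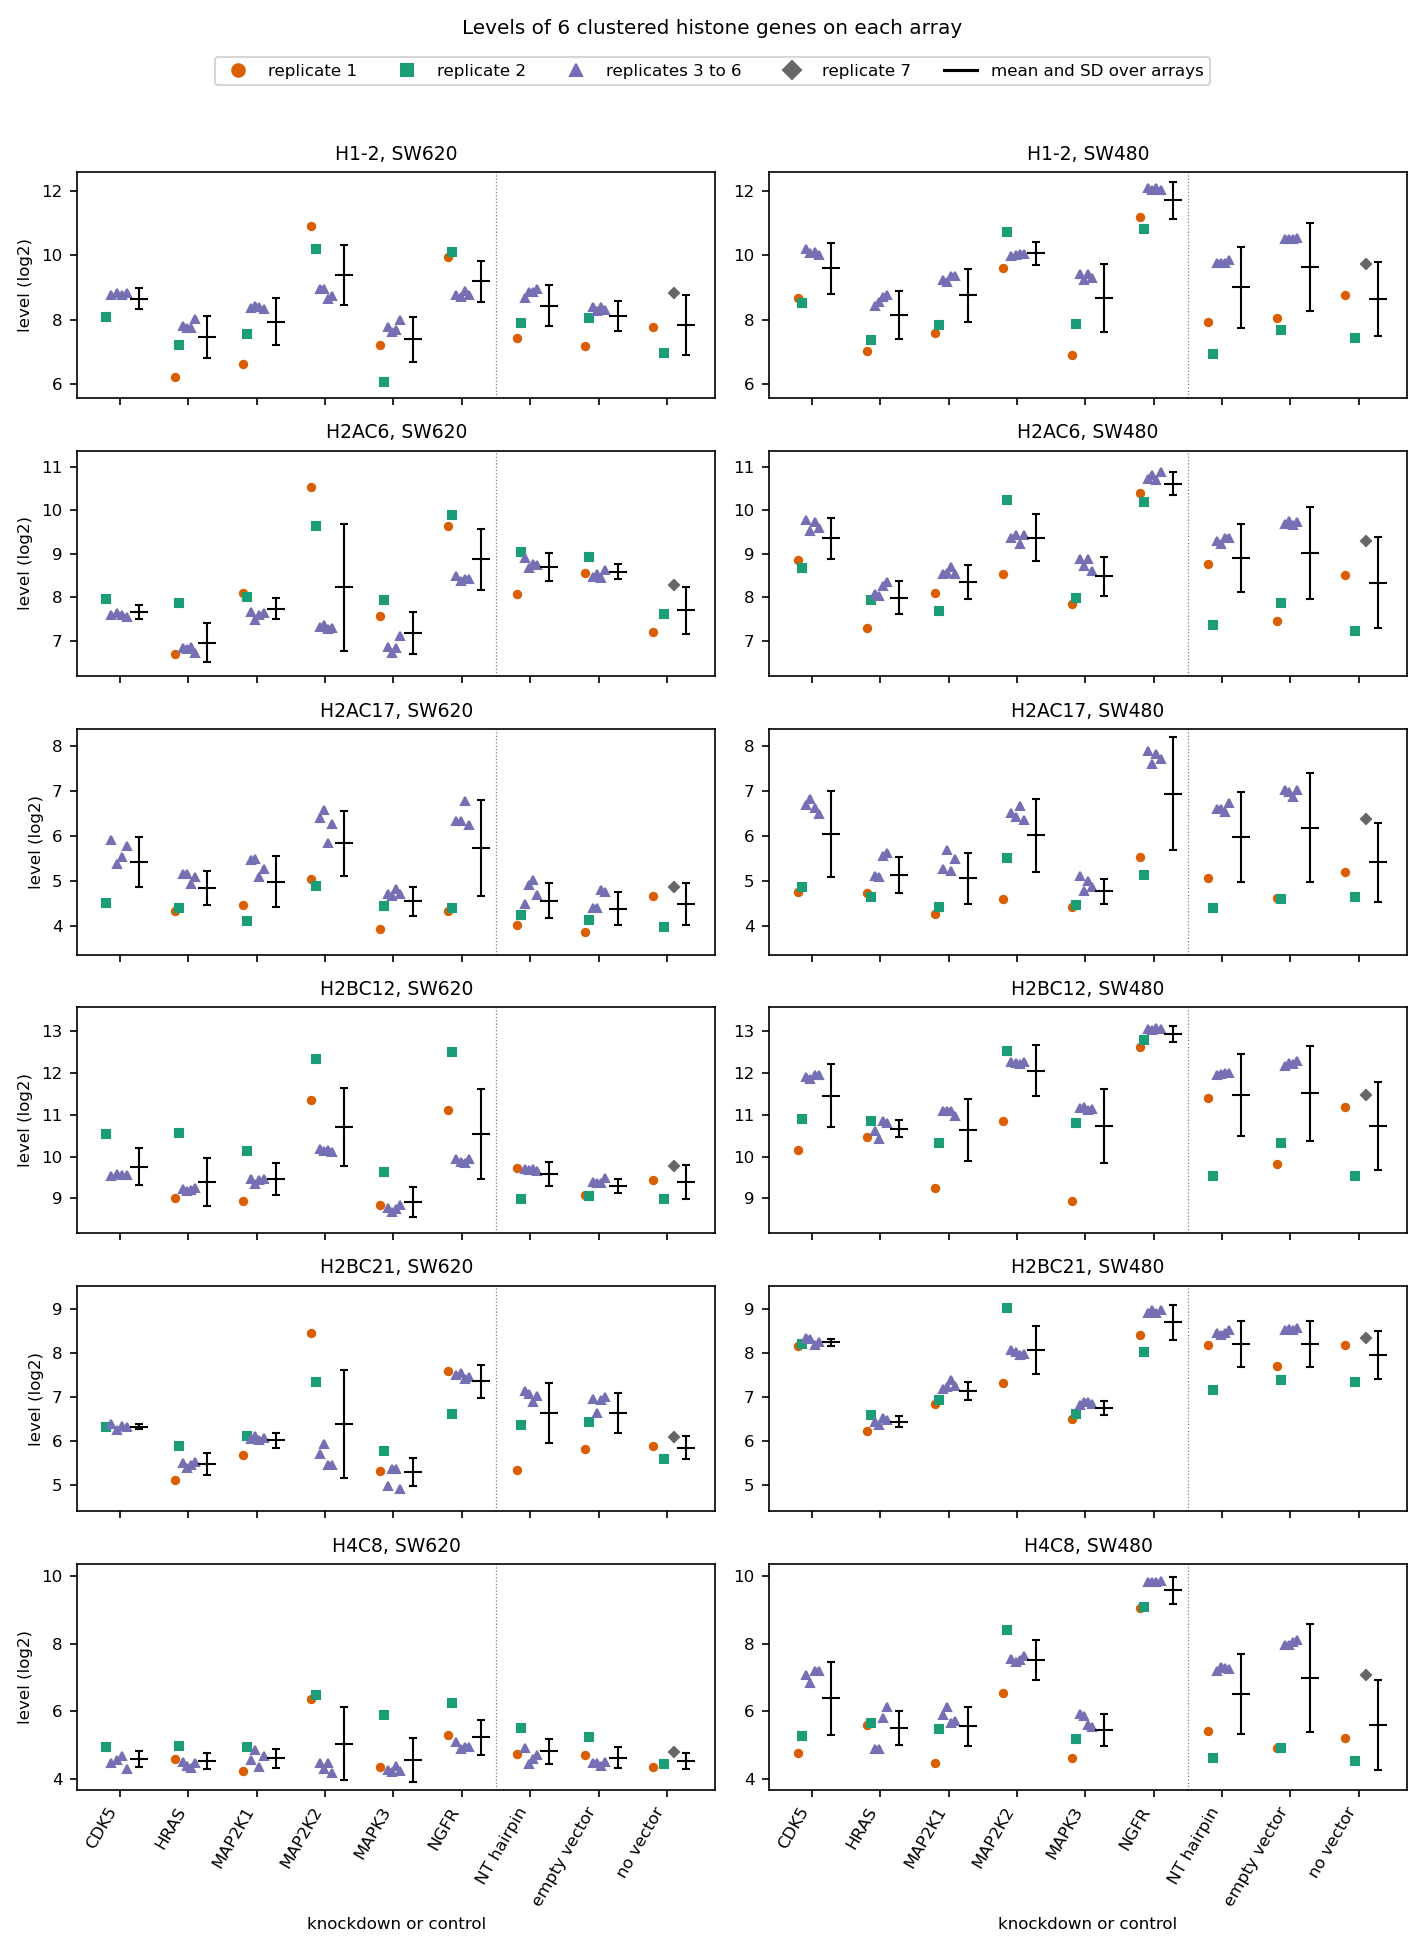
Log2 level of 6 clustered histone genes on each array in SW620 (left) and SW480 (right), by knockdown (left of the dotted line) and control, with the label series as symbols and the mean ± SD over arrays in black. H1-2, H2BC12 and H4C8 lie above all vector controls in the NGFR knockdown of SW480, and H2BC21 lies below all of them in the HRAS knockdown of SW480.

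In SW620, the NGFR knockdown raised 10 members and lowered 1, where 12.9% of all genes rose and 13.4% fell, with a median of 0.14 against 0.01 over all genes. H2AC17, an H2A gene, led: it read 4.33, 4.40, 6.32, 6.33, 6.77 and 6.23 in replicates 1 to 6 of the knockdown, against 3.85, 4.43 and 5.01 (lowest, median and highest) in the vector controls. Replicates 1 and 2 overlapped the controls and replicates 3 to 6 did not, and the change was 1.26 ± 0.18 (2.40-fold, adjusted p = 6.53e-08). H2BC12 read 11.12, 12.51, 9.94, 9.87, 9.85 and 9.94, all above the controls' 8.99 to 9.73, and changed by 1.11 ± 0.25 (adjusted p = 0.000516). H2BC4 rose by 1.05 ± 0.19 and H1-2 by 0.93 ± 0.28, while H4C9 fell by 0.26 on the log2 scale. The H1-2 change was 2.65 in replicate 1, 2.11 in replicate 2 and 0.20 in replicates 3 to 6. H1-2 (0.68) and H4C9 (-0.23) no longer passed once the arrays that stand apart were left out, and H1-2 did not pass without replicate 1 (0.58) either. Without the 6 arrays that stand apart 11 members rose, 9 of them also called with all arrays, and with replicates 3 to 6 averaged 3 rose. Shares of all genes under these settings are not given.

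The knockdown of MAP2K2 went with rises in SW620. There 13 members rose and 0 fell, where 10.5% of all genes rose and 12.7% fell, and the median was 0.16 against 0.00 over all genes. H2AC17 read 5.03, 4.88, 6.39, 6.57, 5.84 and 6.26 in replicates 1 to 6 of the knockdown, against 3.85 to 5.01 in the vector controls. Only replicate 2 lay within the controls' range, and the change was 1.36 ± 0.18 (2.57-fold, adjusted p = 9.89e-09). H2BC12 read 11.35, 12.33, 10.17, 10.13, 10.15 and 10.11, above all controls (8.99 to 9.73), a change of 1.27 ± 0.25 (2.41-fold, adjusted p = 7.99e-05). H1-2 rose by 1.12 ± 0.28, H2BC9 by 1.12 ± 0.25 and H2BC6 by 1.03 ± 0.25. These rises were uneven: H1-2 changed by 3.62 in replicate 1 and 2.20 in replicate 2 but by 0.23 in replicates 3 to 6. H2AC6 even had opposite signs, with 2.21, 0.65 and -1.33 in those series, and missed the threshold (-0.41 ± 0.23, adjusted p = 0.198). Without the arrays that stand apart 17 rose, and with replicates 3 to 6 averaged 0 passed the limma test. The shares of all genes under these settings are not given, so neither count is read for the members.

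In SW480 the MAP2K2 knockdown changed 0 of 42 members by limma (7 at an unadjusted p under 0.05), where 2.07% of all genes rose and 3.09% fell, and the median was 0.07. Its replicate 2 stood high, with a median of 0.38 against -0.08 in replicate 1 and 0.00 in replicates 3 to 6. Without the arrays that stand apart 1 member passed the test.

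The HRAS, MAP2K1 and MAPK3 knockdowns went the other way in SW480. HRAS knockdown lowered 20 members and raised 0, where 9.97% of all genes rose and 16.2% fell, with a median of -0.21 against 0.02. MAPK3 knockdown lowered 16 and raised 0, where 4.21% of all genes rose and 6.46% fell, with a median of -0.18 against 0.01. MAP2K1 knockdown lowered 13 and raised 1 (H3C7, 0.33 ± 0.09), where 3.2% of all genes rose and 3.34% fell, with a median of -0.15 against -0.01. The falls lay in the H2B genes (8, 7 and 6 of 13 in the HRAS, MAPK3 and MAP2K1 knockdowns), the H2A genes (6, 4 and 5 of 8) and the H4 genes (4, 4 and 2 of 8), while 1, 0 and 0 of 6 H1 genes and 1, 1 and 0 of 7 H3 genes fell. All 3 comparisons share the same vector controls, so they are not independent of each other. Without the arrays that stand apart, 21, 13 and 9 members fell in the HRAS, MAPK3 and MAP2K1 knockdowns. The GAPDH 3′ minus 5′ difference was 1.39 and 1.47 on replicates 3 and 4 of the HRAS knockdown of SW480, against at most 0.49 on the vector controls of SW480, and 0.14, 0.25, 0.41 and 0.32 on replicates 1, 2, 5 and 6. The median member change was -0.34 and -0.38 on replicates 3 and 4 and -0.27 and -0.32 on replicates 5 and 6. The 10 brighter members had median levels of 7.68 and 7.63 on replicates 3 and 4 and of 8.21 and 8.20 on replicates 5 and 6. Without replicate 3 of all groups 12 members fell in the HRAS knockdown, and without replicate 4, 11 did. Leaving out replicates 5 or 6 also cost calls. Of 93 results for single members over all comparisons, 68, 68, 72 and 70 passed without replicates 3, 4, 5 and 6 in turn.

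H2BC21, an H2B gene of the cluster on chromosome 1, fell most in the HRAS knockdown. It ran from 6.25 over 6.46 to 6.59 in the HRAS knockdown of SW480, against 7.16 over 8.46 to 8.57 in the vector controls. The groups did not overlap, and the change was -1.77 ± 0.23, or 29.4% of the controls (adjusted p = 1.61e-09). In the MAPK3 knockdown its levels ran from 6.51 over 6.84 to 6.89, also below all controls, a change of -1.45 ± 0.23 (36.7%, adjusted p = 1.40e-06). The MAP2K1 knockdown changed it by -1.07 ± 0.23 (adjusted p = 0.000762). H2BC21 was lower in each label series in the HRAS knockdown (-1.71, -0.69 and -2.05) and in the MAPK3 knockdown (-1.44, -0.65 and -1.65).

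H2AC8, an H2A gene, ran from 4.27 over 4.80 to 5.91 in the HRAS knockdown of SW480, against 4.53, 7.35 and 7.76 in the vector controls. These groups overlapped, since the vector controls read 4.53 to 6.01 in replicates 1 and 2 and 7.21 to 7.76 in replicates 3 to 6. Its change was -1.64 ± 0.21 (32.1%, adjusted p = 6.53e-10), made up of 0.15 in replicate 2 and -2.25 in replicates 3 to 6, with replicate 1 between them. In the MAPK3 knockdown it ran from 4.46 over 5.23 to 5.70 (-1.55 ± 0.21, adjusted p = 1.34e-08), and in the MAP2K1 knockdown from 4.66 over 5.60 to 5.89 (-1.29 ± 0.21, adjusted p = 3.78e-06). Both overlapped the controls in the same way. H4C8 fell by 1.26 (HRAS), 1.30 (MAPK3) and 1.20 (MAP2K1) on the log2 scale, and H1-2 by 1.19 in the HRAS knockdown.

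The members' medians were above 0 in replicate 2 of these knockdowns. The median member change in the HRAS knockdown of SW480 was -0.10 in replicate 1, 0.16 in replicate 2 and -0.30 in replicates 3 to 6, in the MAPK3 knockdown -0.23, 0.17 and -0.24, and in the MAP2K1 knockdown -0.20, 0.12 and -0.23. Of 42 members, 9, 5 and 6 had the same sign in all 3 series in the HRAS, MAPK3 and MAP2K1 knockdowns. Among the 10 brighter members, the median in replicate 2 was 0.44 (HRAS), 0.41 (MAPK3) and 0.40 (MAP2K1), against -1.38, -0.88 and -0.99 in replicates 3 to 6. With replicates 3 to 6 averaged to a single value, 2 members passed the limma test in the HRAS knockdown and 0 in the MAPK3 and MAP2K1 knockdowns. H2BC21 in the HRAS knockdown was one of those 2 (-1.49, adjusted p = 0.0233).

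**Figure D3:**
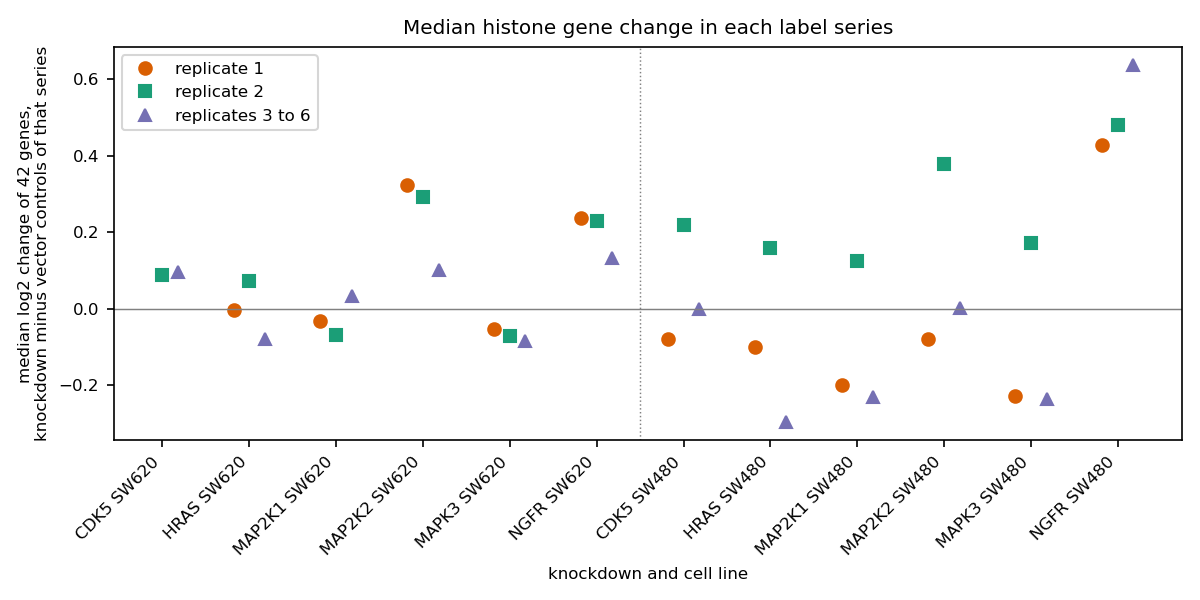
Median log2 change of the 42 clustered histone genes in each label series, knockdown minus the vector controls of that series, for 6 knockdowns of SW620 (left) and SW480 (right). In SW480 the HRAS, MAP2K1 and MAPK3 knockdowns lie below 0 in replicate 1 and replicates 3 to 6 but above 0 in replicate 2, while NGFR lies above 0 in all 3.

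In SW620 the same knockdowns moved fewer members. HRAS knockdown lowered 6 and raised 0, where 14.2% of all genes rose and 16.8% fell (median -0.02). MAPK3 knockdown lowered 8 and raised 0, where 13.9% rose and 15.9% fell (median -0.09). MAP2K1 knockdown lowered 4 and raised 2, where 9.77% rose and 9.28% fell (median 0.01). The members' counts of falls, 6, 8 and 4 of 42, are read against these shares and lie near them. Without the arrays that stand apart, 7, 7 and 5 members passed the test in the HRAS, MAPK3 and MAP2K1 knockdowns.

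H2AC6 led the falls in SW620. It read 6.69, 7.86, 6.83, 6.82, 6.86 and 6.73 in replicates 1 to 6 of the HRAS knockdown, against 8.09, 8.65 and 9.03 (lowest, median and highest) in the vector controls. The groups did not overlap, and the change was -1.68 ± 0.23 (31.2%, adjusted p = 5.50e-09). The MAPK3 knockdown gave 6.73, 6.99 and 7.94 (lowest, median and highest), also below all controls (-1.47 ± 0.23, adjusted p = 2.93e-07), and the MAP2K1 knockdown 7.48, 7.65 and 8.09, which touched the lowest control (-0.90 ± 0.23, adjusted p = 0.00227). H2AC6 was lower in every label series of these 3 knockdowns. H2BC21 ran from 5.11 over 5.48 to 5.89 in the HRAS knockdown and from 4.91 over 5.35 to 5.79 in the MAPK3 knockdown, against 5.36 over 6.92 to 7.15 in the controls. Both overlapped the controls, and the changes were -1.16 ± 0.23 (adjusted p = 2.84e-05) and -1.35 ± 0.23 (adjusted p = 2.19e-06).

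CDK5 knockdown moved few members, with counts near or below the shares of all genes. In SW620 5 members rose and 1 fell, where 10.6% of all genes rose and 13.4% fell (median 0.14). H2AC6 fell there too: it read 7.96, 7.59, 7.63, 7.59 and 7.56 in replicates 2 to 6, below all vector controls (8.09 to 9.03), a change of -0.90 ± 0.24 (53.7%, adjusted p = 0.00377). There is no replicate 1 of this knockdown, so the fitted change leans on the series term, and the plain difference was -1.02 in replicate 2 and slightly larger in size in replicates 3 to 6. H2AC17 rose by 0.82 ± 0.19 and H4C11 by 0.61 ± 0.13. In SW480 0 rose and 1 fell, where 4.15% of all genes rose and 3.9% fell (median 0.02); the gene was H2BC11, an H2B gene, at 3.68 to 5.45 in the knockdown and 3.71 to 6.64 in the controls, overlapping ranges (-0.58 ± 0.14, adjusted p = 0.00409). That call was lost with the non-target hairpin as the sole control (-0.35), without replicate 6 (-0.44), without a series term (-0.58), with arrays averaged in pairs (-0.50) and with replicates 3 to 6 averaged (-0.41). With the arrays that stand apart left out 2 members passed.

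The size of a knockdown's change was compared between the lines as the SW620 change minus the SW480 change. The NGFR knockdown differed most, with 21 of 42 members past the test of the difference, 20 of them with a smaller change in SW620, where 23.7% of all genes differed. H4C8 differed by -2.33 ± 0.36 (adjusted p = 6.20e-07), with changes of 0.51 in SW620 and 2.83 in SW480. H2BC17 differed by -1.63 ± 0.18 (adjusted p = 3.17e-11) and H1-2 by -1.46 ± 0.40 (adjusted p = 0.00387). NGFR itself was reduced far less in SW620 (above), so the knockdowns differ in strength as well as in line, and the part of either was not tested.

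The other knockdowns differed for 10 members (HRAS, where 18.9% of all genes differed), 7 (MAP2K1, 11.5%), 6 (MAPK3, 17%), 3 (CDK5, 15.6%) and 1 (MAP2K2, 10.4%). For HRAS and MAP2K1 all of these were more positive in SW620. HRAS itself was reduced less in SW620 (above), so its knockdowns too differ in strength as well as in line. The part of either was not tested. H2AC17 was past the test in each of these 5 knockdowns, by 1.34 ± 0.26 (HRAS), 1.54 ± 0.26 (MAP2K1), 1.40 ± 0.26 (MAPK3), 0.87 ± 0.27 (CDK5) and 1.44 ± 0.26 (MAP2K2), always more positive in SW620. H2AC6 went the other way for CDK5 (-1.29 ± 0.33) and MAPK3 (-0.99 ± 0.32). With replicates 3 to 6 averaged, 2 members passed the limma test of the difference for NGFR and 0 for each of the other 5 knockdowns.

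The cell cycle genes changed in another pattern. In SW620 every knockdown raised the G2/M genes (23 to 26 of 26 rose, medians 0.92 to 1.11) and the G1/S replication genes (15 to 22 of 23 rose, medians 0.60 to 0.89), while the histone medians lay between -0.09 and 0.16. CDC20, an activator of the anaphase-promoting complex, rose by 1.38 ± 0.17 in the HRAS knockdown of SW620, and TYMS, the thymidylate synthase, by 1.40 ± 0.25, where H2AC6 fell by 1.68 on the log2 scale. In SW480 G2/M medians lay between -0.08 and 0.17 and G1/S medians between -0.21 and 0.12, with at most 3 calls in either list in any knockdown, while histone medians ran from -0.21 to 0.63. All 6 SW620 comparisons share the same vector controls, and these were themselves below non-transduced SW620 cells in both lists. Vector minus non-transduced, the median was -0.86 for G2/M genes (26 of 26 below, 11 past the test) and -0.65 for G1/S genes (23 of 23 below, 2 past the test), and 0.07 for the clustered histone genes. Within replicate 1 the plain medians were -1.94 for G2/M and -1.02 for G1/S, and within replicate 2 they were -0.52 and -0.25. In SW480 the fitted medians were -0.11 and -0.18, with 0 past the limma test in either list and 0 at an unadjusted p under 0.05. How much of the SW620 rise lies in the level of its controls was not tested. The histone genes and the cell cycle genes had their largest median changes in different lines. The G1/S rise in SW620 was not present in every series. In the MAP2K2 knockdown the G1/S medians were -1.49 in replicate 1, 1.94 in replicate 2 and 0.88 in replicates 3 to 6. Replicate 1 medians were also below 0 for MAP2K1 (-0.53) and MAPK3 (-0.10), and above 0 for HRAS (0.47) and NGFR (0.51). CDK5 has no replicate 1 in SW620. In SW480 the replicate 1 G1/S medians were -1.45 (MAPK3), -1.13 (MAP2K1), -0.33 (MAP2K2), -0.31 (CDK5), -0.24 (NGFR) and 0.02 (HRAS).

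**Figure D4:**
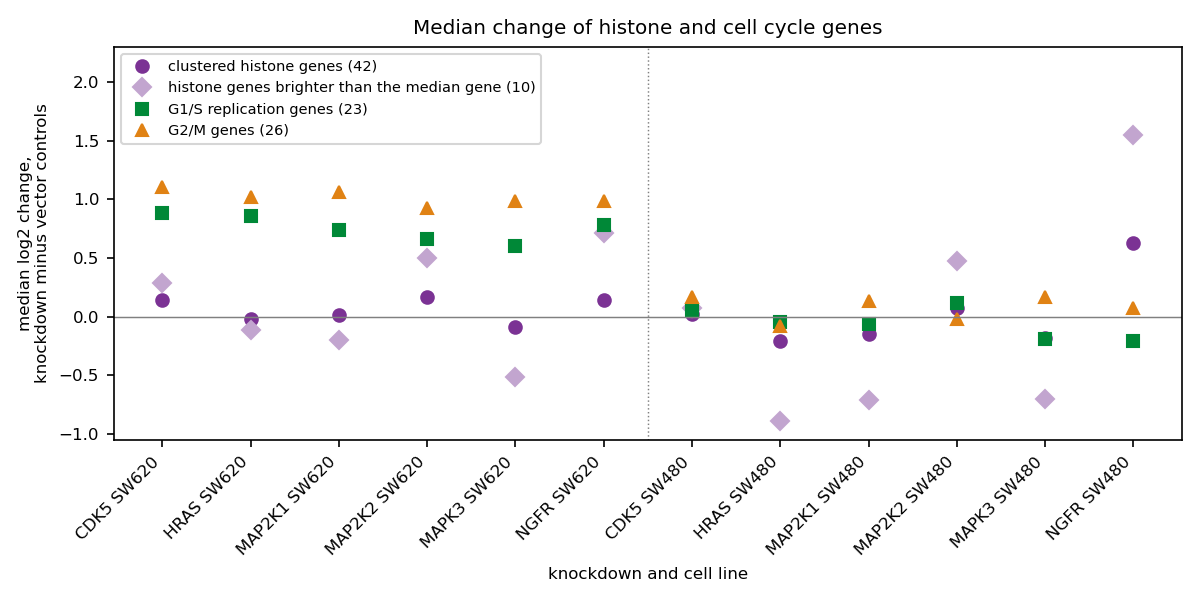
Median log2 change, knockdown minus vector controls, of the 42 clustered histone genes, the 10 brighter of them, 23 G1/S replication genes and 26 G2/M genes in 6 knockdowns of SW620 (left) and SW480 (right). G2/M medians lie between 0.92 and 1.11 in SW620 and between -0.08 and 0.17 in SW480, while the histone median is highest, at 0.63, in the NGFR knockdown of SW480.

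Genes that make, process or carry histone transcripts and proteins were counted beside the members. Of 16 histone transcript factors, 3 to 11 rose and 0 fell across the 6 knockdowns of SW620, where 9.77% to 14.2% of all genes rose. SLBP, which binds the histone stem loop, rose by 1.03 ± 0.17 (adjusted p = 2.27e-06) in the MAPK3 knockdown and by 0.76 ± 0.17 (adjusted p = 0.00034) in the HRAS knockdown of SW620. SRRT, an RNA processing factor, rose in all 6 SW620 knockdowns, by 1.02 ± 0.15 for HRAS. In the NGFR knockdown of SW480 SLBP changed by 0.14 ± 0.17 (adjusted p = 0.641) and CSTF2, a cleavage stimulation factor of polyadenylation, fell by 0.54 on the log2 scale (adjusted p = 0.000185), while SRRT rose by 0.44 ± 0.15 (adjusted p = 0.0247).

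Of 20 histone chaperones, 6 to 11 rose in the SW620 knockdowns and 0 to 1 fell. There 9.77% to 14.2% of all genes rose and 9.28% to 16.8% fell. In SW480 0 to 2 chaperones rose and 0 to 2 fell. The shares of all genes in SW480 were 2.07% to 13.1% risen and 3.09% to 16.2% fallen. Each knockdown also changed more of all genes in SW620, so the counts are not read as a line difference of the chaperones. NASP, an H1 and H3-H4 chaperone, rose in all 6 SW620 knockdowns, by up to 0.86 ± 0.12 (HRAS), and CHAF1B, a subunit of the replication-coupled chaperone CAF-1, rose in all 6 too. Of 9 histone variants outside the clusters, most of which are expressed from polyadenylated mRNAs, 2 to 5 rose in SW620 and 0 to 1 fell. These counts stand beside the same SW620 shares of all genes. The fallen were MACROH2A2, a macroH2A gene, in the HRAS knockdown (-0.43 ± 0.09, adjusted p = 0.000107) and H1-10, a linker histone gene, in the MAPK3 (-1.07 ± 0.28, adjusted p = 0.00215) and MAP2K1 knockdowns (-0.77 ± 0.28, adjusted p = 0.0447). H2AX, the variant phosphorylated at DNA breaks, rose in all 6 SW620 knockdowns, most in CDK5 (1.04 ± 0.20, adjusted p = 3.75e-05), and passed the test in none of SW480. H2AZ2 rose by 0.47 ± 0.11 (adjusted p = 0.000759) in the NGFR knockdown of SW480.

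Members known to make polyadenylated forms were counted apart. In the NGFR knockdown of SW480 6 of these 7 rose, with a median of 1.65, and in the HRAS knockdown of SW480 all 7 fell, with a median of -0.97. In the MAPK3 and MAP2K1 knockdowns of SW480 5 and 4 of 7 fell (medians -0.77 and -0.82). Of all genes, 16.2%, 6.46% and 3.34% fell in the HRAS, MAPK3 and MAP2K1 knockdowns of SW480. These falls were not shared by replicate 2, where 6 of 7 were positive in each (medians 0.33, 0.40 and 0.14). Only 1 of 7 had the same sign in all 3 label series in each, against 7 of 7 in the NGFR knockdown of SW480. In the CDK5 knockdown of SW620 the median of these 7 members was -0.09, with 1 fallen, where that of all members was 0.14. Of these 7, 5 are also among the 10 brighter members, and the 32 dimmer members had medians of 0.28, -0.08, -0.07 and -0.11 in the NGFR, HRAS, MAPK3 and MAP2K1 knockdowns of SW480. Level and form of the mRNA cannot be told apart here.

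Between the lines, the vector controls of SW620 held less of the clustered histone genes than those of SW480. Of 42 members, 23 were lower and 3 higher in SW620, where 24.7% of all genes were lower and 23.9% higher, and the median difference was -0.26 against -0.01. Lower were 8 of 13 H2B, 6 of 8 H2A, 5 of 8 H4, 3 of 7 H3 and 1 of 6 H1 genes. H2BC12 ran from 8.99 over 9.44 to 9.73 on 12 SW620 arrays, against 9.54 over 11.99 to 12.29 on 12 SW480 arrays. The ranges overlapped through the lowest SW480 array, and the difference was -2.06 ± 0.21 (adjusted p = 1.41e-14). H4C8 (-2.03 ± 0.21), H2AC8 (-1.78 ± 0.17) and H2AC17 (-1.62 ± 0.15) were lower too, while H1-4 (0.29 ± 0.07), H1-3 (0.19 ± 0.08) and H3C1 (0.14 ± 0.06) were slightly higher. G2/M genes were lower in SW620 as well (23 of 26, median -1.02), as were G1/S genes (20 of 23, median -0.77). By label series, the median difference of the 42 members was -0.20 in replicate 1, -0.03 in replicate 2 and -0.37 in replicates 3 to 6, and that of the 10 brighter members -1.07, -0.24 and -1.56. H4C8 differed by -0.45, 0.61 and -3.08 in the same order. The line differences in the cell cycle lists are set between vector controls, which in SW620 lay below non-transduced cells (above). With replicates 3 to 6 averaged, 14 members were lower and 0 higher, and the share of all genes under that setting is not given.

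**Figure D5:**
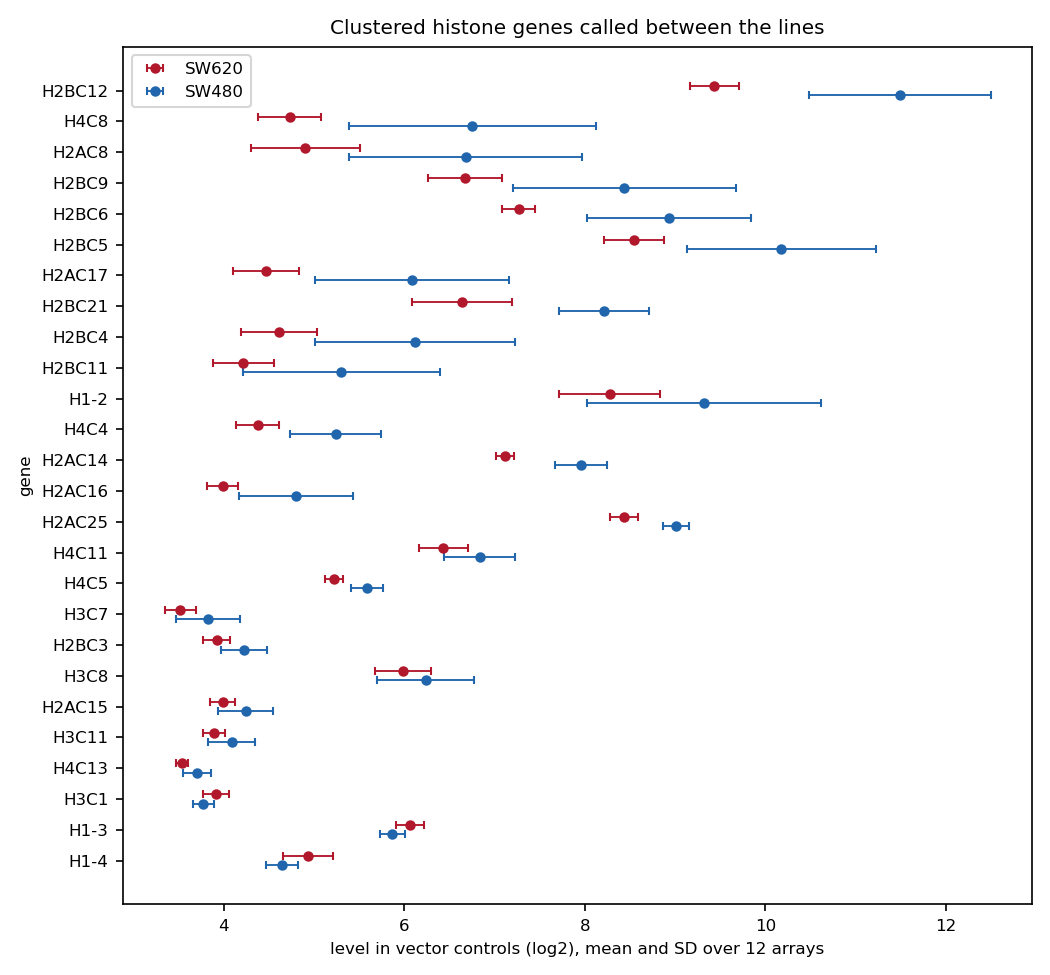
Mean log2 level (± SD over 12 vector control arrays) in SW620 and SW480 of the 26 clustered histone genes that passed the test between the lines, the largest differences at the top. All but the lowest 3 genes are lower in SW620.

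The controls were compared with each other. The non-target hairpin against the empty vector, averaged over the lines, changed 0 of 42 members by limma (1 at an unadjusted p under 0.05), where 0.086% of all genes changed, and the median was 0.01. The vector controls against non-transduced cells raised 2 members and lowered 0, where 2.13% of all genes changed. These were H2AC6 (1.15 ± 0.26, adjusted p = 0.00635) and H2BC5 (0.95 ± 0.24, adjusted p = 0.0155). In SW620 H2AC6 read 8.09 to 9.03 on the vector control arrays, against 7.21, 7.62 and 8.29 on the 3 non-transduced arrays. The highest of these is replicate 7, a series with no vector array, so the comparison rests on replicates 1 and 2 and on the series term. The fitted difference was 1.77 ± 0.36, larger than the plain differences of 1.12 in replicate 1 and 1.37 in replicate 2 and the 0.94 between the means of all arrays. In SW480 the plain H2AC6 differences were -0.40 and 0.40 in replicates 1 and 2. For H2BC5 they were 0.18 and 1.47 in SW620 and -0.33 and 0.49 in SW480, so neither gene was above non-transduced cells in both series of both lines. The fall of H2AC6 in the HRAS, MAPK3, MAP2K1 and CDK5 knockdowns of SW620 is measured from a control level above that of non-transduced cells. Of the HRAS knockdown arrays (6.69 to 7.86), only replicate 2, the highest, lay within the range of the non-transduced ones. The other replicates lay below all non-transduced arrays. How much of the fall lies in the control level was not tested.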

How the data were processed

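RNA of each sample was measured on 1 Affymetrix array. The deposited values are log2 levels made by the authors with RMA, per the submitters' processing notes; a version is not given in the sources used here. Of 54675 probe sets, 41097 name 1 gene in the platform annotation, and each of 19775 genes was read from its probe set of highest mean.

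One model (limma 3.58.1, R 4.3.3; empirical Bayes with a mean trend, robust) held 18 groups and the label series within each line. P-values are two-sided and adjusted by Benjamini-Hochberg over all genes, at 0.05. The number of arrays limits the precision. Members, lists and tests were chosen with earlier results of these data known, so none is independent evidence. Members are named by size of change in a comparison, by passing the test in 6 or more, by level (the 10 brightest) or as makers of polyadenylated mRNA; other lists by the 3 smallest median p per line. The steps were tested on simulated data. Alternatives were a replicate block, no label series, either vector control alone, averaged probe sets, genes under percentile 40 of level left out, renewed quantile normalisation, paired arrays averaged, replicates 3 to 6 alone or averaged, arrays that stand apart left out, and each replicate left out.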

Additional observations from a re-analysis of the deposited data

Results flagged for a closer look

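Far arrays were looked for in 32 sets of array changes behind the values above (the median member change of a knockdown and its leading members). The MAP2K2 knockdown of SW480, with 0 members past the limma test, was not among these sets. Its median member change was 0.38 in replicate 2, against -0.08 in replicate 1 and 0.00 in replicates 3 to 6. In 7 of the 32 sets 1 array lay far from the others of its group. Chance gives about 1 in 20 sets where all arrays of a group are alike. Here replicates 3 to 6 lie closer together (median SD 0.118, against 0.276 between label series), so that rate is too low for an array of replicate 1 or 2. A wider search over the 9 most often changed members and the median in every knockdown covered 120 sets and found 45 such arrays, 42 of them replicate 2. All replicate 2 changes of a line are measured from the same vector control arrays, so these sets are not independent. In SW480 the 10 brighter members had median levels of 7.70 (empty vector) and 7.25 (non-target) in replicate 2. In replicates 3 to 6 the vector controls read 9.1 to 9.5. The CDK5, MAP2K1, MAPK3 and NGFR knockdowns read 8.36, 7.85, 7.93 and 9.96 in replicate 2, also below their own replicates 3 to 6. The MAP2K2 knockdown went the other way, with 9.98 in replicate 2 and 9.21 to 9.38 in replicates 3 to 6. The HRAS knockdown read 7.98 in replicate 2, above replicates 3 and 4 (7.68 and 7.63) and below replicates 5 and 6 (8.21 and 8.20). In replicate 2 the median member change of SW480 was high for CDK5 (0.22, others -0.10 to 0.00), MAP2K1 (0.12, others -0.31 to -0.20) and MAPK3 (0.17, others -0.40 to -0.18). For H2BC21 in SW480 the replicate 2 change was -0.69 in the HRAS knockdown (others -2.13 to -1.71) and -0.65 in the MAPK3 knockdown (others -1.68 to -1.44). For H2AC6 in SW620, replicate 2 of the HRAS knockdown was at -1.12 (others -1.91 to -1.63) and replicate 1 of the MAP2K1 knockdown at -0.23 (others -1.16 to -0.98).

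The test of the difference between lines was passed by 3 members for CDK5, 10 for HRAS, 7 for MAP2K1, 1 for MAP2K2, 6 for MAPK3 and 21 for NGFR, of 42. Over all genes the shares past that test were 15.6% (CDK5), 18.9% (HRAS), 11.5% (MAP2K1), 10.4% (MAP2K2), 17% (MAPK3) and 23.7% (NGFR). Among the members changed most often, H2AC17 differed by 0.87 (CDK5), 1.34 (HRAS), 1.54 (MAP2K1), 1.44 (MAP2K2) and 1.40 (MAPK3), SW620 minus SW480. H2AC6 differed by -1.29 (CDK5), -0.99 (MAPK3) and -1.42 (NGFR). For HRAS, H2BC6 differed by 0.99 and H2BC9 by 0.96. For NGFR, H1-2 differed by -1.46, H2BC5 by -1.14, H2BC6 by -1.08, H2BC9 by -1.06 and H2AC25 by -0.88.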

How the results depend on the processing

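Counts of members past the limma test moved most with the unit of replication. The shares of all genes called under each setting are not given here, so a count that moved is not read as a result about the members. With replicates 3 to 6 averaged to 1 value (chosen after seeing the data), SW480 kept 18 (NGFR), 2 (HRAS) and 0 (MAPK3, MAP2K1, CDK5), SW620 3 (NGFR), 1 (HRAS) and 0 (MAPK3, MAP2K1, MAP2K2, CDK5), the differences between lines 2 (NGFR) and 0 (the other 5), the lines 14 and vector against non-transduced 0; 19 of 93 single-gene results passed. With arrays averaged in pairs there were 6 (HRAS), 3 (MAPK3) and 0 (MAP2K1, CDK5) in SW480, 6 (NGFR), 3 (HRAS), 4 (MAPK3), 2 (CDK5) and 0 (MAP2K1) in SW620, differences of 10 (NGFR), 1 (MAPK3) and 0 (the other 4), and 0 for vector against non-transduced. With no term for label series there were 7 (HRAS), 5 (MAPK3), 1 (MAP2K1) and 0 (CDK5) in SW480, 2 (NGFR), 3 (HRAS, MAPK3), 1 (MAP2K1, CDK5) and 4 (MAP2K2) in SW620, differences of 9 (NGFR) and 0 (the other 5), and 0 for vector against non-transduced. With replicates 3 to 6 alone there were 22 (MAP2K1), 11 (MAP2K2) and 14 (CDK5) in SW480, 21 (NGFR), 17 (HRAS, CDK5) and 20 (MAPK3) in SW620, differences of 22 (HRAS), 17 (MAPK3), 18 (MAP2K1), 15 (MAP2K2, CDK5), and 2 for NT against EV. The empty vector alone gave 9 (MAP2K1, SW480), 3 (HRAS, MAPK3, SW620), 2 (MAP2K1, SW620) and a difference of 2 (MAP2K2). The non-target hairpin alone gave 8 (MAPK3), 5 (MAP2K1), 1 (MAP2K2) and 0 (CDK5) in SW480, 2 (MAP2K1) and 8 (MAP2K2) in SW620, and differences of 4 (HRAS) and 2 (MAP2K1). Without dim genes 15 members were tested, giving 13 (NGFR), 12 (HRAS) and 9 (MAPK3, MAP2K1) in SW480, 5 (MAP2K2) and 2 (CDK5) in SW620, differences of 11 (NGFR), 5 (HRAS), 3 (MAPK3), 2 (MAP2K1), 0 (MAP2K2) and 1 (CDK5), and 13 between lines. Without the arrays that stand apart there were 1 (MAP2K2) and 2 (CDK5) in SW480, a difference of 3 (MAP2K2) and 4 for vector against non-transduced. Renewed quantile normalisation gave 1 (MAP2K2, SW480), and averaged probe sets a difference of 2 (MAP2K2).

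Leaving out each replicate gave 11 to 22 (HRAS), 6 to 19 (MAPK3), 5 to 22 (MAP2K1), 0 to 3 (MAP2K2) and 0 to 3 (CDK5) in SW480, 3 to 10 (HRAS), 5 to 13 (MAPK3), 2 to 7 (MAP2K1) and 4 to 10 (CDK5) in SW620, differences of 4 to 15 (HRAS), 1 to 12 (MAPK3), 1 to 14 (MAP2K1), 1 to 10 (MAP2K2) and 1 to 7 (CDK5), and 1 to 11 for vector against non-transduced. Median changes without dim genes were 1.44 (NGFR), -0.83 (HRAS), -0.64 (MAPK3) and -0.61 (MAP2K1) in SW480 and 0.47 (NGFR), -0.18 (HRAS), -0.45 (MAPK3) and -0.12 (MAP2K1) in SW620. The median for CDK5 in SW620 was 0.17 with the empty vector, 0.078 with the non-target hairpin, 0.10 with replicates 3 to 6 alone or averaged, and 0.12 to 0.15 with a replicate left out; for MAP2K1 in SW620 it was -0.059 with the non-target hairpin, and for NGFR in SW620 0.21 with replicates 3 to 6 averaged. Of the 93 single-gene results, chosen for passing the main test, 0 reversed under any setting. Each setting kept most or all of replicates 3 to 6, or their mean, so this count says little about replicates 1 and 2. No setting read replicate 1 or 2 alone, where some changes had the other sign (above). Where a result changed otherwise, the cause was not tested.

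With the replicate number as a block, 28 members (NGFR) and 20 (HRAS) passed in SW480, and the MAP2K2 difference had 2. Numbers did not pair the samples: arrays of the same number had a median correlation of -0.0096, and 11 of 64 correlated best with their own number. Signal limits the 32 dimmer members, which lie below the median gene.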

Other observations

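The 20 probe sets that name several cluster genes, and so were left out of the 42, gave like values in the NGFR knockdown of SW480. Of these 20, 17 were above the vector controls in all 3 label series. A probe set shared by H2BC4, H2BC6 and other H2B genes averaged 10.7 in the knockdown and 8.89 in the vector controls, one shared by H2AC18 and H2AC19 averaged 12.5 and 11.2, and one naming 14 H4 genes averaged 10.3 and 10.2. The last changed by -0.71 in replicate 1, -0.38 in replicate 2 and 0.38 in replicates 3 to 6. In the HRAS knockdown of SW480, 0 of 20 were above the controls in all series and 2 below in all. In the MAP2K2 knockdown of SW620, 12 of 20 were above in all series.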
